A study of Mus musculus with 6 samples.

Results

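The genes described here encode the secreted Wnt ligands, their Frizzled and Lrp receptors, the secreted proteins that block or strengthen the signal, and the proteins that carry it to the nucleus. They were chosen by symbol: protein-coding mouse genes of the Wnt, Fzd, Sfrp, Dkk and Rspo families, plus Axin1, Axin2, Lef1, Tcf7, Tcf7l1, Tcf7l2, Lrp5, Lrp6, Lgr5, Wif1, Frzb, Nkd1, Nkd2, Ctnnb1, Rnf43 and Znrf3. The annotation (GENCODE M21, mm10) holds 57 such genes, and 49 of them were among the 21666 genes of the count matrix. The matrix comes from RNA-seq of cultured skeletal muscle satellite cells, the stem cells of muscle, after 2 days in differentiation. Of the 6 libraries, 3 came from wild-type (WT) mice and 3 from mice lacking lncMREF (KO), a noncoding transcript that the series title ties to myogenic differentiation. The labels give no strain, age or form of the knockout allele, nor do they say if each replicate is its own animal or culture. The p-values therefore rest on the scatter among 3 libraries a group, part of which may be technical. The design asks how the genotypes differ at this time.

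Wnt proteins are lipid-modified ligands that bind a Frizzled receptor. With the co-receptors Lrp5 or Lrp6 they halt the Axin complex that destroys beta-catenin, which then enters the nucleus and switches on genes together with Tcf and Lef factors. Other Wnt signals run through Frizzled without beta-catenin and steer cell polarity and movement. In muscle, Wnt signals are known for their part in the move of satellite cells from proliferation to differentiation.

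Library totals ran from 17919826 to 28430678 counts. All levels below are CPM (a gene's counts scaled to a common library size, with TMM factors), so that 1 count was worth 0.0373 to 0.0527 CPM. A gene was tested if it had about 10 counts in at least 3 libraries, and it was called at an adjusted p under 0.05 in edgeR's quasi-likelihood test over 15518 genes. Gene counts were also deposited library by library, and those tables disagreed with the matrix: Ctnnb1, for example, had a mean of 16060 counts per library in the matrix and 0 in the tables. All values here come from the matrix, in which the muscle markers below were abundant; which source is right was not settled. The genotypes differed widely: 66.7% of all tested genes were called, 33.7% higher and 33% lower in KO. The 6 muscle markers checked (Myod1, Myog, Myh3, Acta1, Ckm and Des) were present in every library, with a summed level of 15480 to 16130 CPM in WT and 3400 to 3663 in KO. The 3 proliferation markers Mki67, Top2a and Ccna2 summed to 56.0 to 60.3 CPM in WT and 264 to 303 in KO. Markers of other cell types also moved with genotype. All 7 endothelial markers were lower (summed 297 to 305 CPM in WT, 72.8 to 78.4 in KO), all 7 macrophage and leukocyte markers were higher (100.1 to 108 against 306 to 314), and 5 of 6 Schwann and glial markers were higher (201 to 209 against 742 to 744). Of 5 tenocyte markers 4 were higher and 1 lower (163 to 167 against 279 to 289). The fibro-adipogenic list split, with 3 of 6 tested genes higher and 3 lower (310 to 319 against 329 to 340), and of 6 smooth muscle and pericyte genes 1 was higher and 3 were lower (3441 to 3584 against 3058 to 3145). No marker of these lists had a group mean of 0. The part of these differences in the Wnt gene changes was not tested, and in such bulk RNA fewer cells of a type and less RNA per cell cannot be told apart. No gene identifier could be tied to the deleted lncRNA, and its own level is therefore not given.

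Of the 49 Wnt genes in the matrix, 43 were tested, and 38 of them were called, 15 higher and 23 lower in KO. That is 88.4% of the tested members, beside the 66.7% of all genes. Of the tested members 20 changed by over 2-fold, 6 up and 14 down, whereas 17.9% of all genes passed that mark, 8.56% up and 9.38% down. The CPM of the 2 genotypes did not overlap for 40 of the 43, beside 69.4% of all genes. The median log2 fold change (KO over WT) was -0.24 over the tested members and 0.02 over all genes. Of the 43, 7 reached the count minimum in every library of 1 genotype only (Wnt2, Wnt6 and Wnt10a in WT, Wnt2b, Wnt16, Rspo1 and Rspo2 in KO), so the filter itself favoured a difference in them. All 7 but Wnt2b are among the 20 past 2-fold and the 40 without overlap, so both counts include genes that the filter favoured. The other 36 held 12 higher and 20 lower calls, in a setting where 68% of all genes with that minimum in both genotypes were called. DESeq2 called 14 members higher and 21 lower, beside 62% of all genes in either direction. Scaling by library size alone moved the median of all genes to 0.19 and left 17 members higher and 18 lower. Of all calls, 66.1% were then higher in place of 50.5%.

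**Figure D1:**
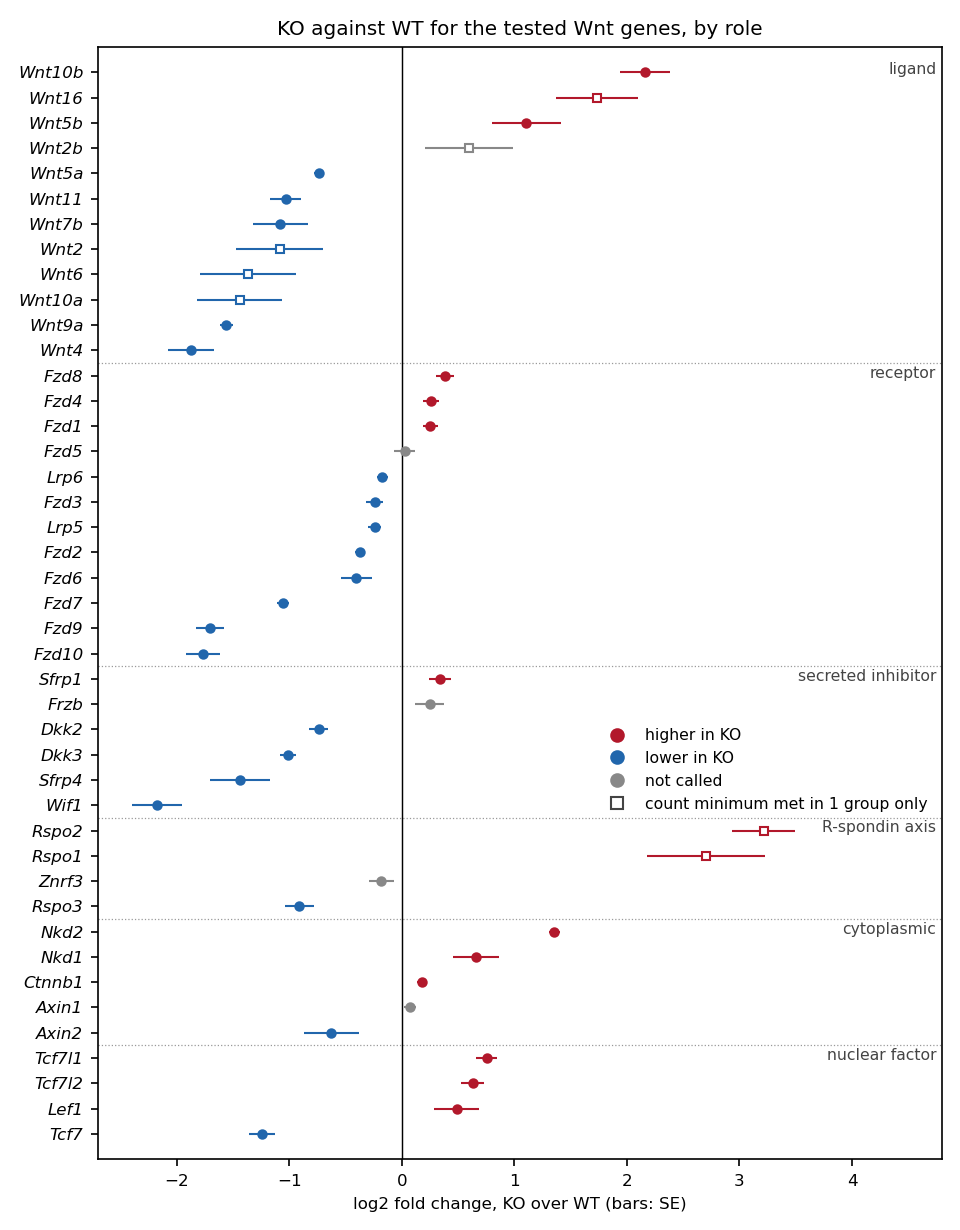
The log2 fold change (KO over WT, x axis) of the 43 tested Wnt genes, grouped by role, with the SE as bars. Open squares mark the 7 genes that met the count minimum in every library of 1 genotype only; most ligands lie left of 0, and 3 of the 4 nuclear factors lie right of it.

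Ligand RNA was lower in KO, and what remained was of a different make-up. Of 12 tested Wnt ligands, 8 fell, 3 rose and 1 was not called, beside 33% lower and 33.7% higher of all genes. Of the 7 ligands at the count minimum in both genotypes, 5 fell and 2 rose. Per kilobase of exon, a scale on which genes can be compared, the 13 ligands in the matrix summed to 44.3 ± 0.412 CPM per kb in WT and 21.7 ± 0.284 in KO (SD, n = 3 each). Wnt9a and Wnt5a made up most of this sum in both genotypes. Wnt9a held 53.3% ± 0.666 of it in WT and 36.9% ± 0.657 in KO, and Wnt5a held 33.7% ± 0.624 and 41.3% ± 0.602. Wnt10b went from 0.868% ± 0.423 to 7.67% ± 0.864.

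Wnt9a, known for its part in joint and limb development, was the most abundant ligand per kilobase in WT cells (ENSMUSG00000000126, chromosome 11, 59306928 to 59333552). Its level was 79.3, 77.5 and 78.7 CPM in the WT libraries and 27.3, 25.8 and 26.9 in the KO libraries. The 3 WT values lay close together and far above all KO values: the log2 fold change was -1.56 (SE 0.06, adjusted p 7.91e-23), a 2.95-fold fall. Wnt5a, the best known ligand of beta-catenin-independent signalling, lies at 28504750 to 28527448 on chromosome 14. It stood at 119, 114 and 117 CPM in WT and 69.6, 69.0 and 71.6 in KO, a 1.67-fold fall (log2 -0.74, SE 0.05, adjusted p 7.88e-16). In KO cells Wnt5a was the first ligand per kilobase, at 8.96 ± 0.177 CPM per kb, and Wnt9a the second, at 8.01 ± 0.243. In CPM, not divided by exon length, Wnt5a stood above Wnt9a in every library of both genotypes.

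The other ligands that fell were far less abundant. Wnt4, a ligand of kidney and reproductive tract development, measured 4.01, 5.05 and 4.59 CPM in WT and 1.18, 1.35 and 1.16 in KO (log2 -1.87, SE 0.20, adjusted p 5.92e-10). This was the largest fall among the tested ligands. Wnt11, known to guide cell movement in the early embryo, measured 7.61, 8.64 and 7.20 CPM against 3.71, 4.02 and 3.64 (-1.03, SE 0.14). Wnt7b, a ligand of lung and kidney development, measured 2.31, 2.37 and 2.54 against 1.40, 0.876 and 1.16 (-1.08, SE 0.25). For both of these the lowest WT library stood above the highest KO library. Wnt11 and Wnt7b share 8.8% and 6.62% of their exonic bases with a gene on the other strand, and the sources do not tell whether reads were counted by strand.

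Wnt6 and Wnt10a are neighbours on chromosome 1, at 74771892 to 74785322 and 74791516 to 74804179, and both fell. Wnt6 measured 0.846, 1.32 and 0.523 CPM in WT and 0.362, 0.398 and 0.211 in KO (log2 -1.37, SE 0.43, adjusted p 0.00529). Wnt10a measured 1.74, 1.05 and 0.97 against 0.634, 0.239 and 0.527 (-1.44, SE 0.37, adjusted p 0.00101). The groups did not overlap for either gene, but these are small counts: the 3 KO libraries together held 22 counts of Wnt6 and 30 of Wnt10a. Leaving out WT replicate 2 ended the Wnt6 call (-1.03, adjusted p 0.0651). Wnt2, a ligand of lung and vessel development, measured 0.935, 0.632 and 1.01 against 0.272, 0.478 and 0.474 (-1.09, SE 0.39, adjusted p 0.0137). Wnt2 did not pass when WT replicate 3 (-0.96, adjusted p 0.0701) or KO replicate 1 (-0.87, 0.0789) was left out, nor with DESeq2 (-1.10, 0.0513).

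Wnt10b, Wnt16 and Wnt5b went the other way. Wnt10b, a beta-catenin-activating ligand known to hold back fat cell formation, lies on chromosome 15 at 98770712 to 98778150. Its level was 0.757, 2.00 and 1.16 CPM in the WT libraries and 5.84, 6.13 and 5.01 in the KO libraries. Each KO value was above 5 CPM and the highest WT value was 2.00, a 4.46-fold rise (log2 2.16, SE 0.22, adjusted p 9.45e-10). Wnt16, a ligand known from bone, measured 0.356, 0.369 and 0.336 against 1.40, 0.956 and 1.21 (1.73, SE 0.37, adjusted p 9.56e-05). Wnt5b, a close relative of Wnt5a, measured 0.935, 1.05 and 0.523 against 1.31, 1.79 and 2.21 (1.11, SE 0.30, adjusted p 0.00183). Wnt5a and Wnt5b therefore differed in the direction of their change, although in KO cells Wnt5a still stood at 70.1 ± 1.38 CPM and Wnt5b at 1.77 ± 0.45. Wnt2b overlapped between groups and was not called (0.60, SE 0.39, adjusted p 0.183). Wnt3 was too low to be tested: it had 6, 8 and 8 counts in WT and 0, 2 and 0 in KO, a KO over WT ratio of 0.0938 with an exact 95% interval of 0.0107 to 0.382, which covers counting error only. With no filter its log2 fold change was -3.24 (SE 0.99, adjusted p 0.00283). Wnt1, Wnt3a, Wnt7a, Wnt8a, Wnt8b and Wnt9b were not among the matrix genes and are not analysed here.

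The bases ahead of 3 ligand genes are shown because these genes changed by over 2-fold and their start regions hold letters of factors that matter here: the core CTTTGA (or TCAAAG on the other strand) bound by Tcf and Lef proteins, and the palindrome CAGCTG, an E-box of the kind MyoD binds. The sequences are RefSeq's (GRCm38.p6, the assembly of mm10), 5′ to 3′ on the gene's own strand, ending before a RefSeq transcript start, with the matches in capitals. The Wnt9a stretch, chr11:59306680-59306927 on the plus strand, has an E-box that begins 74 bases before the RefSeq start. The Wnt11 stretch, chr7:98834862-98835111 on the plus strand, has a Tcf/Lef core 50 bases before the RefSeq start. Another Wnt11 window, chr7:98838595-98838844, holds neither motif. The Wnt5b stretch, chr6:119449387-119449636 on the minus strand, has a core 71 bases before its RefSeq start. This is an inner start of the gene, 1 of 3 with a window, and the other Wnt5b windows hold neither motif.
Wnt9a: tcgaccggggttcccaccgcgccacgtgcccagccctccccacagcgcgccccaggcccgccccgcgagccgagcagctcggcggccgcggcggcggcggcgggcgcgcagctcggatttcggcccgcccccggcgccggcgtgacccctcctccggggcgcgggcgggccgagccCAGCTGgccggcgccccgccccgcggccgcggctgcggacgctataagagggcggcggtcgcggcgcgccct
Wnt11: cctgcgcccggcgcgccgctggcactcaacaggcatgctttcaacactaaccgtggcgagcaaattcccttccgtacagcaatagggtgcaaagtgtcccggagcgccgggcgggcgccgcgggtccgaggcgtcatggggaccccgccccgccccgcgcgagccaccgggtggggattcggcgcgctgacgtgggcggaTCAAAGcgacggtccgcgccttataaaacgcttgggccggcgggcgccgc
Wnt5b: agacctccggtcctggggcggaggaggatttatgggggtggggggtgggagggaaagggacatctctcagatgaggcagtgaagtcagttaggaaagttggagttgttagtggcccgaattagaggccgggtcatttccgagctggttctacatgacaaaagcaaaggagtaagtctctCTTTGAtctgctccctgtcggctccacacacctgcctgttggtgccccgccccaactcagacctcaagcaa
Of the 49 members, 32 had a RefSeq window, 42 windows in all. The Tcf/Lef core was in 6 of these windows (14.3%) and in 13.8% of all 32851 windows of 250 bases. The E-box was likewise in 6 (14.3%), and in 13% of all windows. Members with a core were Dkk1, Frzb, Fzd1, Lef1, Wnt11 and Wnt5b, and those with an E-box were Frzb, Fzd10, Lef1, Nkd1, Tcf7 and Wnt9a. Called genes with the core were 3 higher and 1 lower, and those with the E-box 2 higher and 3 lower; Dkk1 was not tested and Frzb was not called. The letters of the motifs cannot overlap, and a match is a run of letters, not a measured binding site.

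**Figure D2:**
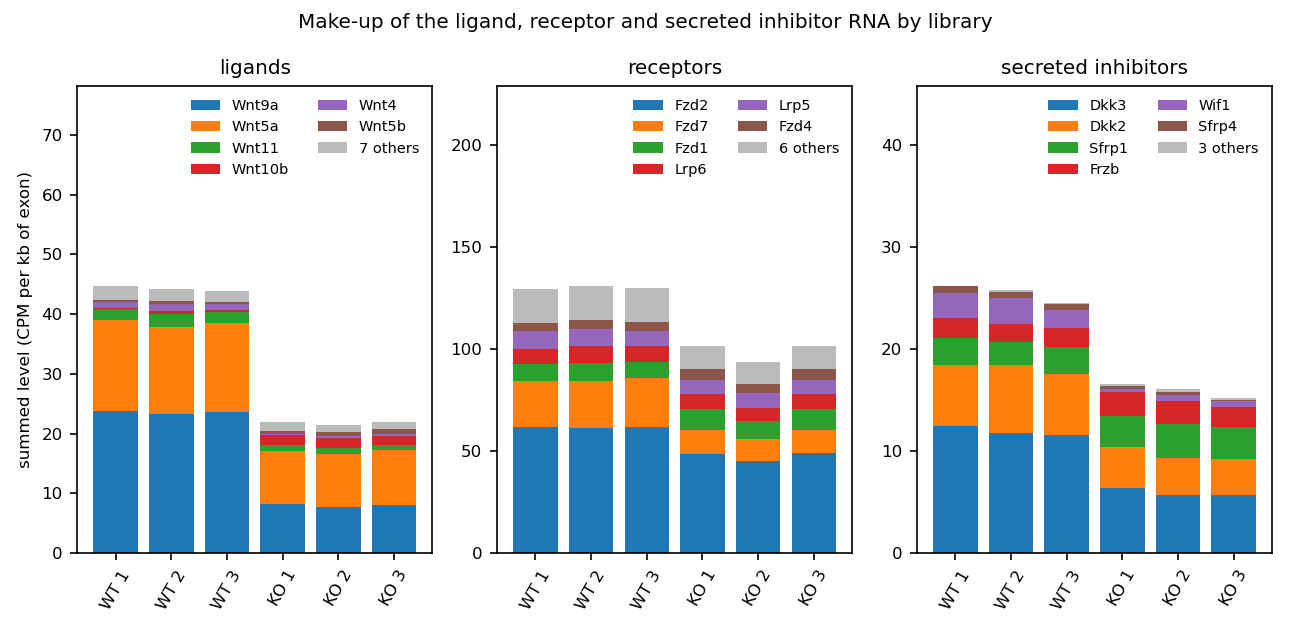
Summed level (CPM per kb of exon, y axis from 0) of the 13 ligands, 12 receptors and 9 secreted inhibitors in each library, with the 6 most abundant members of each role in colour and the others in grey. The ligand bars of KO libraries stand at 21.4 to 21.9, below the 43.8 to 44.7 of WT libraries, and the Wnt9a share is smaller in them.

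All 12 receptors were tested; 3 Frizzleds (Fzd7, Fzd9 and Fzd10) fell by over 2-fold and the others changed by less. Of the 12, 8 fell, 3 rose and 1 was not called, beside 33% lower and 33.7% higher of all genes. The receptors summed to 129.8 ± 0.75 CPM per kb in WT and 98.7 ± 4.63 in KO. Fzd2 was the most abundant in every library and fell little (ENSMUSG00000050288, chromosome 11, 102604396 to 102608058). It measured 226, 225 and 226 CPM in WT and 178, 165 and 180 in KO, a 1.3-fold fall (log2 -0.37, SE 0.04, adjusted p 2.07e-09). It held 47.4% ± 0.376 of receptor RNA per kilobase in WT and 48.2% ± 0.207 in KO.

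Fzd7, through which Wnt7a is known to act on satellite cells, lies on chromosome 1 at 59482424 to 59486955. Its level was 102, 103 and 108 CPM in WT and 52.7, 48.1 and 49.9 in KO. Every KO library stood at about the same lower level, a 2.08-fold fall (log2 -1.05, SE 0.05, adjusted p 3.72e-19). Fzd9 measured 11.4, 13.3 and 12.2 CPM against 3.58, 4.02 and 3.69 (-1.70, SE 0.12, adjusted p 2.17e-14), and Fzd10 measured 10.3, 7.90 and 9.55 against 3.08, 2.39 and 2.74 (-1.77, SE 0.15, adjusted p 9.74e-13). These 2 receptors are related in sequence and both ended at under 5 CPM in each KO library. In WT cells Fzd9 was nonetheless at 5.37 ± 0.422 CPM per kb, above Fzd4 at 4.14 ± 0.101, and in KO cells the order was the reverse, 1.64 ± 0.101 against 4.98 ± 0.519.

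The receptors that rose were Fzd8 (0.39, SE 0.08), Fzd4 (0.26, SE 0.07), which also binds the non-Wnt ligand norrin, and Fzd1 (0.25, SE 0.07), with adjusted p-values of 7.64e-05 to 0.00183. Their levels in KO were 23.4 ± 2.16, 33.4 ± 3.49 and 41.5 ± 4.13 CPM. Fzd3, known for axon guidance, fell by 0.24 on the log2 scale and Fzd6, known for hair and skin polarity, by 0.40. The signalling co-receptors Lrp5 and Lrp6 fell by 0.24 and 0.17, to 67.3 ± 0.756 and 97.9 ± 4.16 CPM. None of these 4 calls held with library size scaling alone (log2 -0.07, -0.23, -0.07 and -0.0036, adjusted p 0.425, 0.125, 0.258 and 0.951 in that order), and that of Fzd6 was also lost without KO replicate 3 (-0.28, adjusted p 0.078). Fzd5 overlapped between groups, with 13.1 ± 0.431 CPM in WT and 13.3 ± 0.758 in KO, and did not pass (0.03, adjusted p 0.81); 17.8% of its exonic bases are shared with another gene.

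**Figure D3:**
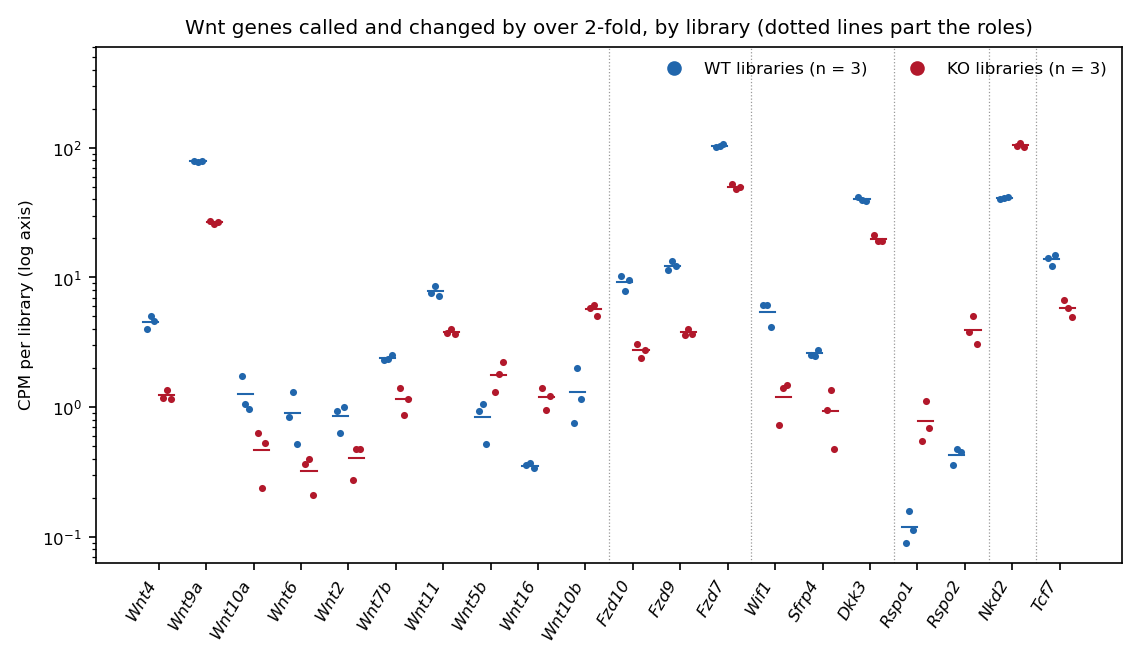
CPM (log axis) in each of the 3 WT and 3 KO libraries for the 20 Wnt genes that were called and changed by over 2-fold, with the group mean as a line. The libraries of the 2 genotypes do not overlap for any of the 20, and the values span from about 0.1 CPM (Rspo1 in WT) to over 100 CPM (Fzd7 in WT, Nkd2 in KO).

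Secreted inhibitors were also lower in KO. Of 6 tested, 4 fell, 1 rose and 1 was not called, beside 33% lower and 33.7% higher of all genes. The 9 in the matrix summed to 25.5 ± 0.873 CPM per kb in WT and 15.95 ± 0.701 in KO. Wif1, which binds Wnt proteins outside the cell, had the largest fall of any tested member (ENSMUSG00000020218, chromosome 10, 121033960 to 121100650). It measured 6.10, 6.11 and 4.18 CPM in the WT libraries and 0.725, 1.39 and 1.48 in the KO libraries. The lowest WT library was still over 2 times the highest KO library, and the fall was 4.52-fold (log2 -2.18, SE 0.22, adjusted p 4.69e-10). Dkk3, a divergent member of the Dickkopf family and the most abundant inhibitor per kilobase, measured 41.9, 39.5 and 38.7 CPM against 21.4, 19.2 and 19.0 (-1.01, SE 0.07, adjusted p 4.6e-15). Dkk2, which binds Lrp5 and Lrp6, fell from 23.1 ± 1.51 to 13.8 ± 0.928 CPM (-0.74, SE 0.08).

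The frizzled-related proteins, which carry a Frizzled-like Wnt-binding domain without a membrane anchor, did not move together. Sfrp4 measured 2.54, 2.47 and 2.76 CPM in WT and 0.951, 1.35 and 0.474 in KO (-1.44, SE 0.27, adjusted p 1.78e-05). Sfrp1 rose a little, from 11.0 ± 1.02 to 14.0 ± 0.806 CPM (0.34, SE 0.10, adjusted p 0.00295), and held 9.91% ± 1 of inhibitor RNA per kilobase in WT and 20% ± 1.36 in KO. Frzb, at 5.995 ± 0.268 CPM in WT and 7.11 ± 0.624 in KO, did not pass (0.25, SE 0.13, adjusted p 0.0859), although its groups did not overlap. It was called without KO replicate 3 (0.31, adjusted p 0.0499) and with library size scaling alone (0.42, 0.0041). Sfrp2 was too low for the filter, with 1, 4 and 2 counts in WT and 10, 9 and 6 in KO, a ratio of 3.68 (exact 95% interval 1.55 to 10.1, counting error only). With no filter its log2 fold change was 1.79 (SE 0.72, adjusted p 0.0291), and 16.1% of its exonic bases are shared. Dkk1 and Sfrp5 had at most 4 counts in any library, and Dkk4 was not in the matrix.

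R-spondins strengthen Wnt signals: they bind Lgr receptors and remove the ubiquitin ligases Znrf3 and Rnf43, which otherwise clear Frizzled from the surface. Of 4 tested genes of this group, 2 rose, 1 fell and 1 was not called, beside 33.7% higher and 33% lower of all genes. Those that rose met the count minimum in every library of KO only, so the filter favoured a difference in them. Of the 2 at that minimum in both genotypes, Rspo3 fell and Znrf3 was not called. Rspo3 was the most abundant R-spondin in WT cells and fell, whereas Rspo1 and Rspo2 rose from very low levels. Rspo3 (chromosome 10, 29452416 to 29535867) measured 12.6, 9.37 and 9.81 CPM in WT and 5.80, 6.05 and 5.01 in KO (log2 -0.91, SE 0.13, adjusted p 1.18e-07); 13.1% of its exonic bases are shared with an antisense gene. Rspo2, known for its part in limb development and at the neuromuscular junction, lies on chromosome 15 at 43020794 to 43170826. It measured 0.356, 0.474 and 0.448 CPM in WT and 3.81, 5.02 and 3.06 in KO. All 3 KO libraries were far above the WT range, and the 9.3-fold rise was the largest of any tested member (3.22, SE 0.28, adjusted p 2.3e-12). Rspo1 measured 0.089, 0.158 and 0.112 against 0.543, 1.11 and 0.685 (2.70, SE 0.52, adjusted p 2.67e-05), on 8 counts in all WT libraries and 53 in all KO libraries.

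The share of this group's RNA per kilobase that was Rspo3 went from 70.3% ± 4.82 to 43.7% ± 1.18, and that of Rspo2 from 1.74% ± 0.395 to 18.4% ± 2.62. Znrf3 kept about the same share, 25.9% ± 3.59 in WT and 26.7% ± 4.08 in KO, and missed the threshold (-0.18, SE 0.11, adjusted p 0.149). Lgr5, a stem cell marker of gut and other tissues, had 4, 6 and 7 counts in WT and 12, 19 and 7 in KO. The ratio was 2.31 (exact 95% interval 1.27 to 4.36, counting error only). Lgr5 did not pass the filter, and with no filter its adjusted p was 0.0541. Rnf43 had 4 counts in all WT and 5 in all KO libraries, and Rspo4 was not in the matrix.

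Among the cytoplasmic members, Ctnnb1 rose slightly, the RNAs of both Naked proteins rose, Axin2 was lower and Axin1 was not called. Ctnnb1, which encodes beta-catenin, was the most abundant member of all in every library (ENSMUSG00000006932, chromosome 9, 120929216 to 120960507). It measured 677, 695 and 658 CPM in WT and 743, 726 and 827 in KO, a 1.13-fold rise (log2 0.18, SE 0.04, adjusted p 0.000756). The groups did not overlap, but the gap between the highest WT and the lowest KO library was smaller than the spread within KO. Ctnnb1 shares 15.1% of its exonic bases with Ulk4 on the other strand, itself at 1.96 and 3.75 CPM. RNA levels say nothing of how much beta-catenin protein was stable or nuclear. The scaffold Axin1, at 58.4 ± 0.293 CPM in WT and 61.5 ± 1.27 in KO, missed the threshold (0.08, SE 0.05, adjusted p 0.212). With library size scaling alone Axin1 was called higher (0.25, adjusted p 0.000112).

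Nkd2, which binds Dishevelled and dampens Wnt signals, showed the largest change of this group (ENSMUSG00000021567, chromosome 13, 73818534 to 73847631). It measured 40.3, 41.0 and 41.5 CPM in WT and 102.5, 109.6 and 102 in KO, a 2.56-fold rise (log2 1.36, SE 0.05, adjusted p 3.11e-22). Its relative Nkd1 rose as well, at a far lower level, from 2.03 ± 0.372 to 3.21 ± 0.361 CPM (0.66, SE 0.20, adjusted p 0.00527). Axin2, a feedback inhibitor widely read as a target of beta-catenin, was low and uncertain. It measured 1.96, 2.47 and 3.21 CPM in WT and 1.95, 1.15 and 1.95 in KO. The lowest WT library and the highest KO library were almost level, and WT replicate 3 stood above the rest. The fitted change was -0.63 (SE 0.24, adjusted p 0.0232), and it failed once WT replicate 3 (-0.42, adjusted p 0.186) or KO replicate 2 (-0.40, 0.177) was dropped, with library size scaling alone (-0.46, 0.0938) and with DESeq2 (-0.63, 0.0555).

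Per kilobase of exon, the leading nuclear factor was a different one in each genotype. Tcf7, which encodes TCF1 and mainly activates targets together with beta-catenin, fell, while Tcf7l1, known mainly as a repressor, and Tcf7l2 rose. Tcf7 (ENSMUSG00000000782, chromosome 11, 52252371 to 52283014) measured 14.2, 12.3 and 14.9 CPM in WT and 6.66, 5.85 and 4.95 in KO, a 2.37-fold fall (log2 -1.24, SE 0.12, adjusted p 1.67e-11). Tcf7l1 (chromosome 6, 72626378 to 72789254) measured 14.4, 12.4 and 12.1 against 22.1, 24.1 and 18.9, a 1.69-fold rise (0.76, SE 0.09, adjusted p 1.23e-08). In CPM, Tcf7l1 stood slightly above Tcf7 in WT replicates 1 (14.38 against 14.15) and 2 (12.37 against 12.32). It stood below Tcf7 in WT replicate 3 (12.05 against 14.93). Per kilobase, Tcf7 led this group in each WT library and Tcf7l1 led it in each KO library. Their shares went from 51.9% ± 3.55 to 21.9% ± 2.35 and from 32.5% ± 2.19 to 54.6% ± 0.587, while the sum of the 4 was 10.1 ± 0.526 CPM per kb in WT and 10.1 ± 1.12 in KO.

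Tcf7l2 measured 11.3, 12.9 and 10.3 CPM in WT and 15.7, 20.4 and 16.8 in KO (log2 0.63, SE 0.10, adjusted p 2.88e-06). Lef1, the factor often induced by the signal itself, was the lowest of the 4, at 2.45, 2.26 and 2.16 CPM against 3.17, 3.78 and 2.58. Its groups did not overlap, by a narrow margin, and the fitted rise was 0.49 (SE 0.20, adjusted p 0.0314). It did not pass with any 1 of 4 libraries left out: WT replicate 2 (0.47, adjusted p 0.0634), WT replicate 3 (0.43, 0.0971), KO replicate 1 (0.49, 0.0577) and KO replicate 2 (0.34, 0.198). DESeq2 did not call it either (0.47, 0.0836). Lef1 shares 13.8% of its exonic bases with an antisense gene.

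Of 82 other genes of the pathway, 74 were tested, of which 23 were higher, 29 lower and 22 not called in KO. The share called, 70.3%, lay near the 66.7% of all genes, and the counts for the smaller lists below stand beside the same 33.7% higher and 33% lower of all genes. Its median log2 fold change was -0.08, beside 0.02 for all genes. Both tested genes of ligand secretion were lower. Porcn, which adds the lipid that Wnt ligands need, fell from 29.4 ± 1.01 to 8.12 ± 0.344 CPM (-1.86, SE 0.09, adjusted p 4.05e-20), and Wls, which carries the ligands to the surface, by 0.17 (SE 0.04). Among 14 tested co-receptors and outer regulators, 4 rose and 8 fell. Lrp4, the agrin receptor of the neuromuscular junction, fell by 1.78 and Kremen1, a receptor for Dickkopf proteins, by 1.05. The glypican Gpc3 rose by 2.30 (SE 0.11), from 4.61 to 22.8 CPM, whereas the more abundant glypican Gpc4 fell by 0.67, from 200 to 126 CPM. Lgr4, an R-spondin receptor, rose by 0.61, and Lgr6 fell by 0.34. Ror1 and Ror2, receptors of Wnt5a signals, moved in opposite directions, at -0.54 (SE 0.10) and 0.44 (SE 0.09).

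Of 20 tested cytoplasmic genes, 2 rose, 9 fell and 9 were not called. Dvl1, which encodes a Dishevelled protein, fell by 0.81 and its paralogue Dvl3 by 0.40, whereas Dvl2 rose by 0.53, with 19.7% of its exonic bases shared. Of the casein kinases, Csnk1a1 fell by 0.61, Csnk1g3 by 0.42, Csnk1e by 0.23 and Csnk1g1 by 0.22, while Csnk1d and Csnk1g2 were not called. The destruction complex kinase Gsk3a fell by 0.33 (SE 0.05, adjusted p 8.26e-07), with 28.3% of its exonic bases shared. Its paralogue Gsk3b (0.09, adjusted p 0.0799) and the scaffold Apc (0.04, adjusted p 0.423) were not called. Of 12 nuclear cofactors 6 rose and 2 fell: Pygo1, a beta-catenin coactivator, rose by 2.16 (SE 0.14) and the corepressor Tle4 fell by 1.31 (SE 0.09). Pygo1 went from 2.54 to 11.3 CPM, while its more abundant paralogue Pygo2 (64.8 and 60.9 CPM) was not called (adjusted p 0.153). Of the other Tle genes, Tle1 fell by 0.16, Tle3 rose by 0.11 and Tle2 was not called. Of 14 planar polarity genes 5 rose and 5 fell, with Celsr3 at -1.52 and Scrib at -1.05. Of 12 tested genes that are known beta-catenin targets in other tissues, 6 rose, 3 fell and 3 were not called. Cyclin Ccnd1 (1.41) and Myc (0.53) rose, and Tnfrsf19 (-1.71) and Fgf9 (-2.52) fell. Ccnd1 and Myc answer to many other signals, and the proliferation markers named above were higher in the same libraries. Why any of these targets rose or fell was not tested. Of the exonic bases of Ccnd1, 23.4% are shared.

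**Figure D4:**
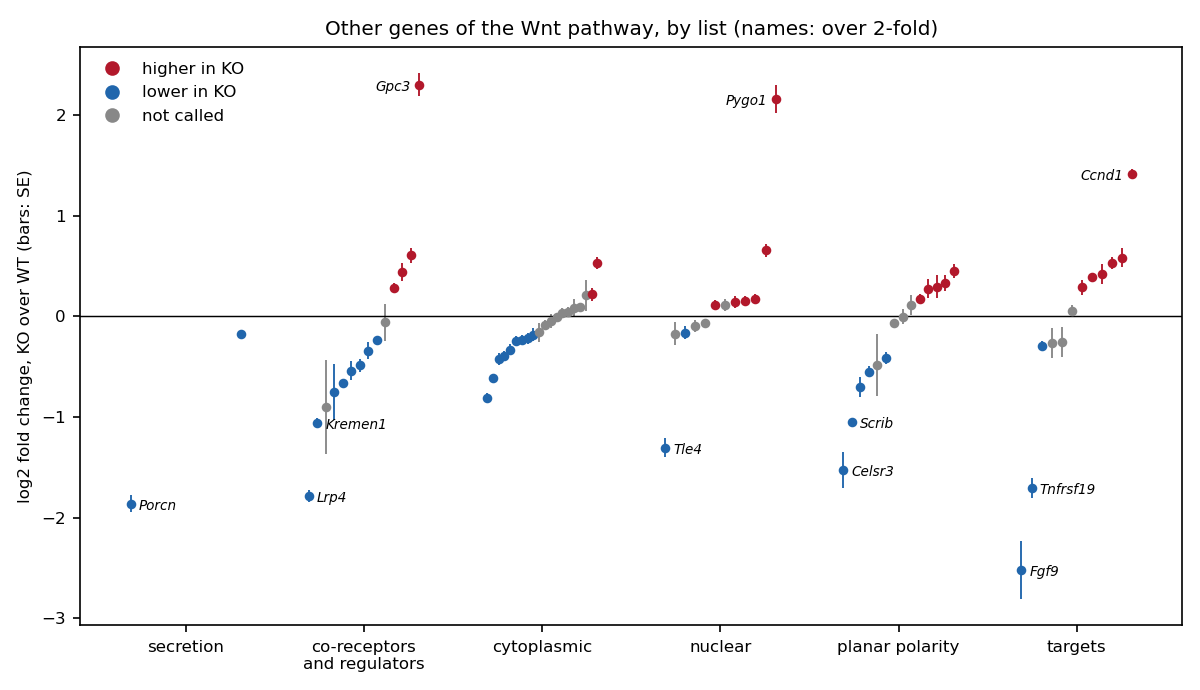
The log2 fold change (KO over WT, y axis) with its SE for the 74 tested genes of the wider Wnt pathway, 1 point a gene, by list. Points fall on both sides of 0 in each list but secretion, and the named genes are those beyond a 2-fold change.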

How the data were processed

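Per the labels' protocols, TRIzol-isolated total RNA was sequenced by Illumina. The submitters' processing notes name HISAT2 2.2.1, featureCounts 2.0.1 and mm10; the annotation release, counting options and strand use are not stated there or in the labels. Unnormalized gene counts were deposited by the authors as a matrix of all 6 libraries (the source here) and in tables of single libraries. Among 21 members averaging 200 counts or more in the matrix, the tables' mean lay between 0.8 and 1.25 times the matrix value for 1, so they served only as an alternative.

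Symbols, mm10 coordinates and exon lengths came from GENCODE M21, and shared exonic bases from bedtools 2.31.1 on either strand. Genes were kept by filterByExpr (minimum count 10, minimum total 15) and scaled by TMM. KO was compared with WT in edgeR 4.0.16 (R 4.3.3) by the quasi-likelihood test on genotype alone, with Benjamini-Hochberg adjustment over all genes tested. SE was taken as |log2 fold change| over the root of F. The fit was tested on simulated data in which a small part of the genes changed, equally up and down. That setting is far narrower than the change seen here, so it does not check the scaling or error rate for it. Replicate pairs differed by a mean chi-square of 3.18 to 5.11 per gene, above the 1 of sampling noise. The common scatter beyond counting error (edgeR's biological coefficient of variation) was 4.91%. The labels do not tell whether this scatter lies between animals or between cultures. Per-kilobase levels divide CPM by the gene's summed exon length, which need not be the length of the transcripts present.

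Every member that passed the filter is named. Values in each library are given for called members past 2-fold, the most abundant member of each role, and Ctnnb1, Axin2 and Lef1; those of Wnt5a, Tcf7l2 and the untested members were added after they were seen. The members and lists were chosen with earlier results of these data known. Alternatives were other size factors, filters, DESeq2 1.42.0, limma 3.58.1 voom, a test against 1.5-fold, a replicate block, each library left out and the per-library tables.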

Additional observations from a re-analysis of the deposited data

How the results depend on the processing

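With 15 members higher and 23 lower out of 10353 calls over all genes, leaving out any 1 library gave 14 to 17 higher, 21 to 23 lower and 9766 to 10151 in all. Library size scaling, DESeq2 factors, no filter, a stricter filter, DESeq2 and limma voom kept each of the 3 counts within 1.5 times. Tested against a 1.5-fold change, 6 members were higher and 15 lower, of 3394 calls. Of the members called in the main test, 17 did not pass this one. They were Fzd1, Fzd2, Fzd3, Fzd4, Fzd6, Fzd8, Lrp5, Lrp6, Ctnnb1, Nkd1, Sfrp1, Tcf7l2, Lef1, Axin2, Wnt2, Wnt5b and Wnt6. The fitted changes of Wnt2, Wnt5b and Wnt6 were over 2-fold, with adjusted p-values of 0.138, 0.0608 and 0.0517 in the 1.5-fold test. Axin1, Frzb, Fzd5, Wnt2b and Znrf3, not called in the main test, did not pass it either. The per-library tables gave 4 higher and 6 lower members and 5436 calls among 9871 genes. In both sources 13 members could be tested, and 4 of them had the opposite sign. Log2 mean counts of the sources correlated at 0.104 over 9941 genes averaging 200 counts or more in the matrix, and at -0.054 over 21 members. Calls and signs from the tables therefore cannot check those of the matrix gene by gene. The cause of the disagreement was not tested. Fzd5, which was not called, ranged from -0.0197 (without KO replicate 3) to 0.0533 with 1 library left out, and was also below 0 without WT replicate 3 (-0.0073). Same-numbered WT and KO libraries did not deviate together (correlations -0.001, -0.009 and -0.025 across genes), and no library correlated best with its own number, so the numbers were not taken as pairs. With the replicate block 15 members were higher and 23 lower, of 10209 calls, and no member's call changed. Depth limits the lowest members: 6 in the matrix were too low to be tested.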
